A study of Mus musculus with 23 samples.

Results

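Disease-associated microglia genes are genes that microglia, the resident macrophages of the brain, express at a raised level near protein deposits and dying neurons. The 35 genes followed here were taken by symbol from a list for disease-associated and activated microglia, and the list was chosen with earlier results of these data known. All 35 were found among the 54232 genes listed for each library. In the resting brain microglia express surveillance genes such as P2ry12 and Tmem119. In the disease-associated state, which in mouse models depends in large part on the lipid-sensing receptor TREM2 and its adaptor TYROBP, they add phagocytic receptors, lysosomal proteins, lipid-handling proteins and secreted factors. In mice with mutant tau the state accompanies neuronal loss in the hippocampus.

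The libraries were made from poly(A)-selected RNA of dissected hippocampi of C57BL/6 mice in 2 cohorts. At 9 months, 4 libraries were from PS19 mice that lack 1 Lsd1 allele (labelled PS19;Lsd1Δ/+ and called PS19 Lsd1 heterozygotes here), 4 from PS19 mice with both alleles (PS19), 2 from Lsd1Δ/+ mice without the transgene (Lsd1 heterozygotes) and 4 from wild-type mice (WT). At 11 months, 3 libraries were from PS19 mice that received a virus expressing LSD1 (PS19_rescue), 3 from PS19 mice that received the HA control virus (PS19_HA) and 3 from wild-type mice that received the HA virus (WT_HA). The 11-month mice thus all received an adeno-associated virus into the hippocampus, with expression restricted to neurons. PS19 mice carry a transgene for human tau with the P301S mutation, driven by the mouse prion promoter and expressed mainly in neurons, and LSD1, encoded by Kdm1a, is a histone demethylase. Age, virus and cohort differ together between the 9-month and 11-month libraries and cannot be told apart, and no wild-type mice with the LSD1 virus or 11-month PS19 mice without a virus were analysed here. Nothing in the labels ties each library to an animal of its own. A p-value here therefore measures the spread between the samples alone, and part or all of it may be technical.

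Counted reads per library ran from 15451494 to 24644977. Mitochondrially encoded genes took 16.1% to 33.9% of the reads in 3 libraries (WT replicate 3, PS19 replicate 3 and WT_HA replicate 2) and 2.86% to 6.04% in the other 20. At 9 months the first principal component, with 58.5% of the variance, set replicates 1 and 2 apart from replicates 3 and 4 in every group that had them. All 9-month libraries were male-type by Xist and Y-linked genes. Of the 9 libraries at 11 months 6 were female-type, and the male-type ones were PS19_rescue replicate 1, PS19_HA replicate 3 and WT_HA replicate 3. Kdm1a stood at 1763 to 10853 CPM (each gene's count scaled by TMM to a common library size) in PS19_rescue, against 59.2 to 61.1 CPM in PS19_HA and 59.9 to 66.3 CPM in WT_HA. Kdm1a stood at 37.3, 36.5, 55.2 and 43.6 CPM in PS19 Lsd1 heterozygotes and at 51.9 to 58.6 CPM in PS19, while Lsd1 heterozygotes had 36.9 and 37.0 CPM and WT 53.1 to 58.3 CPM. The library labelled PS19;Lsd1Δ/+ replicate 3 therefore lay at the level of mice with both alleles, and every direction drawn from that group includes it.

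Promoter windows (250 bases before to 50 after the RefSeq gene start, GRCm38.p6) were available for 26 of the 35 genes, as 30 windows. The letters TGANTCA, the core to which AP-1 factors bind, occurred on either strand in 7 of the 30 windows (23.3%), against 7.81% of all 32851 windows, and the 7 genes were Cd68, Cd84, Cst7, Cybb, Gpnmb, Igf1 and Itgax. GAGGAAGT, a form of the site of the myeloid factor PU.1, occurred in 2 windows (6.67%), against 3.2% of all. TCACGTG, an E-box of lysosomal genes, occurred in 1 window (3.33%), against 3.77% of all. The interferon-stimulated response element, searched as 2 GAAA repeats 2 bases apart, occurred in 2 windows (6.67%), against 3.44% of all. The AP-1 letters are a palindrome apart from the free base, so a match reads on both strands, and none of these matches was tested for binding. Itgax, Cst7 and Clec7a had the 3 largest differences in both cohorts among the members that edgeR tested. DESeq2 called Gpnmb at 9 months and not at 11. The windows of these genes, chosen after their values were seen, are shown in RefSeq's sequence, with the AP-1 match in capitals. It starts 56 bases before the start of Itgax, 6 before that of Cst7 and 8 after that of Gpnmb, and no searched motif lies in the Clec7a window shown, 1 of 2 for that gene.
Itgax, chr7:128129300-128129599, + strand: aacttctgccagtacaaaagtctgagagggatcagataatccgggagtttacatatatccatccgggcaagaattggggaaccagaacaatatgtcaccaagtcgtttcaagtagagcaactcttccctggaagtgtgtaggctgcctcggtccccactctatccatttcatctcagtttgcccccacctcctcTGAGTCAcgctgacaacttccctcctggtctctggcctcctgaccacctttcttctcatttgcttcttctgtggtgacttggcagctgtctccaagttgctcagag
Cst7, chr2:150570165-150570464, + strand: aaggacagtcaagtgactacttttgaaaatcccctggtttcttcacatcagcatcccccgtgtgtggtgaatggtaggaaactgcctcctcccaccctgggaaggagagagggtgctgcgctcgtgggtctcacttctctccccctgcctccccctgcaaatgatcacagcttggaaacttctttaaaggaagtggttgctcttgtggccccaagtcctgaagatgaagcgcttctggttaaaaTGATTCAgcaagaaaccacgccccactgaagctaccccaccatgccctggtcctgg
Gpnmb, chr6:49036268-49036567, + strand: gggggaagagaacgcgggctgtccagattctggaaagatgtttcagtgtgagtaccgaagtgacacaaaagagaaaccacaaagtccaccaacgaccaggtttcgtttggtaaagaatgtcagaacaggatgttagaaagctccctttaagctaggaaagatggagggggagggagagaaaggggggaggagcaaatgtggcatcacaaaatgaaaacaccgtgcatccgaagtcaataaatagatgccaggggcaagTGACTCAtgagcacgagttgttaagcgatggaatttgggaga
Clec7a, chr6:129472730-129473029, - strand: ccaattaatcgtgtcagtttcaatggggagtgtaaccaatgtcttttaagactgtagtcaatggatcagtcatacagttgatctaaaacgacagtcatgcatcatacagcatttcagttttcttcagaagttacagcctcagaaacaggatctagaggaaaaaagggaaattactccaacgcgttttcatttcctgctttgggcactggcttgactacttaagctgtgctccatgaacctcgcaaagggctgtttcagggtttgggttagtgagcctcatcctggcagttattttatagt

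In WT hippocampus the 35 genes spanned a wide range of level. Per kilobase of exon, the transport gene Ank was highest at 51.3 CPM, followed by the hypoxia-response factor Hif1a at 15.8 CPM, Cd9 at 15.4 CPM, Cd63 at 10.6 CPM and Fabp5 at 10.3 CPM, as means of 4 libraries. The lowest were Msr1 at 0.0352, Itgax at 0.0299 and Atp6v0d2 at 0.0207 CPM per kilobase. Itgax was seen with 2, 6, 1 and 3 reads in the 4 WT libraries and Cst7 with 3, 4, 0 and 1, so their WT levels rest on few reads. In bulk RNA, fewer cells of a type and less RNA per cell cannot be told apart, and the genes with high WT levels are also expressed by other cells of the hippocampus.

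At 9 months most of the 35 genes were higher in PS19 than in WT: 32 were higher and 3 lower, with a median log2 difference of 1.95, against -0.02 for all 20122 genes tested, of which 46.5% were higher. The largest differences were those of Itgax (log2 7.0), Cst7 (6.44), Clec7a (5.79), Cybb (3.78) and Lilrb4a (3.51), which encode an integrin chain, a protease inhibitor, a beta-glucan receptor, an NADPH oxidase subunit and an inhibitory receptor. DESeq2 called 16 of the 35 higher at an adjusted p under 0.05, against 0.772% of all genes it tested. With edgeR's quasi-likelihood test, the main test, 26 had an unadjusted p under 0.05 and were higher (3.45% of all genes) and none was lower (0.462%), but none passed adjustment over all genes, where 0.00497% of genes passed. The 4 PS19 libraries lay above all 4 WT libraries for 13 members (1.02% of all genes) and below them for none (0.557%). With the replicate number as a block, edgeR called 1 member (Itgax, adjusted p = 0.0343), with 5 genes called in all. DESeq2 with the block called 21 members, with 308 genes higher and 45 lower in all, against 179 and 3 without it.

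The spread among the PS19 libraries was large. PS19 replicate 2 was the lowest of the 4 for 27 of the 35 genes, and PS19 replicate 4 the highest for 20. PS19 replicates 1, 2, 3 and 4 were above every WT library for 30, 15, 24 and 29 members. WT replicates 1, 2, 3 and 4 were each above the other 3 WT libraries for 8, 9, 11 and 7 members. The share of such genes over all genes was not computed. Without PS19 replicate 2, edgeR called 15 members, all higher, and 146 genes in all, while in the other fits that left out 1 library it called 0 or 1 member. The members' median log2 difference was 1.85 within replicates 1 and 2 and 2.40 within replicates 3 and 4, and 2.20 without the libraries over 10% mitochondrial.

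**Figure D1:**
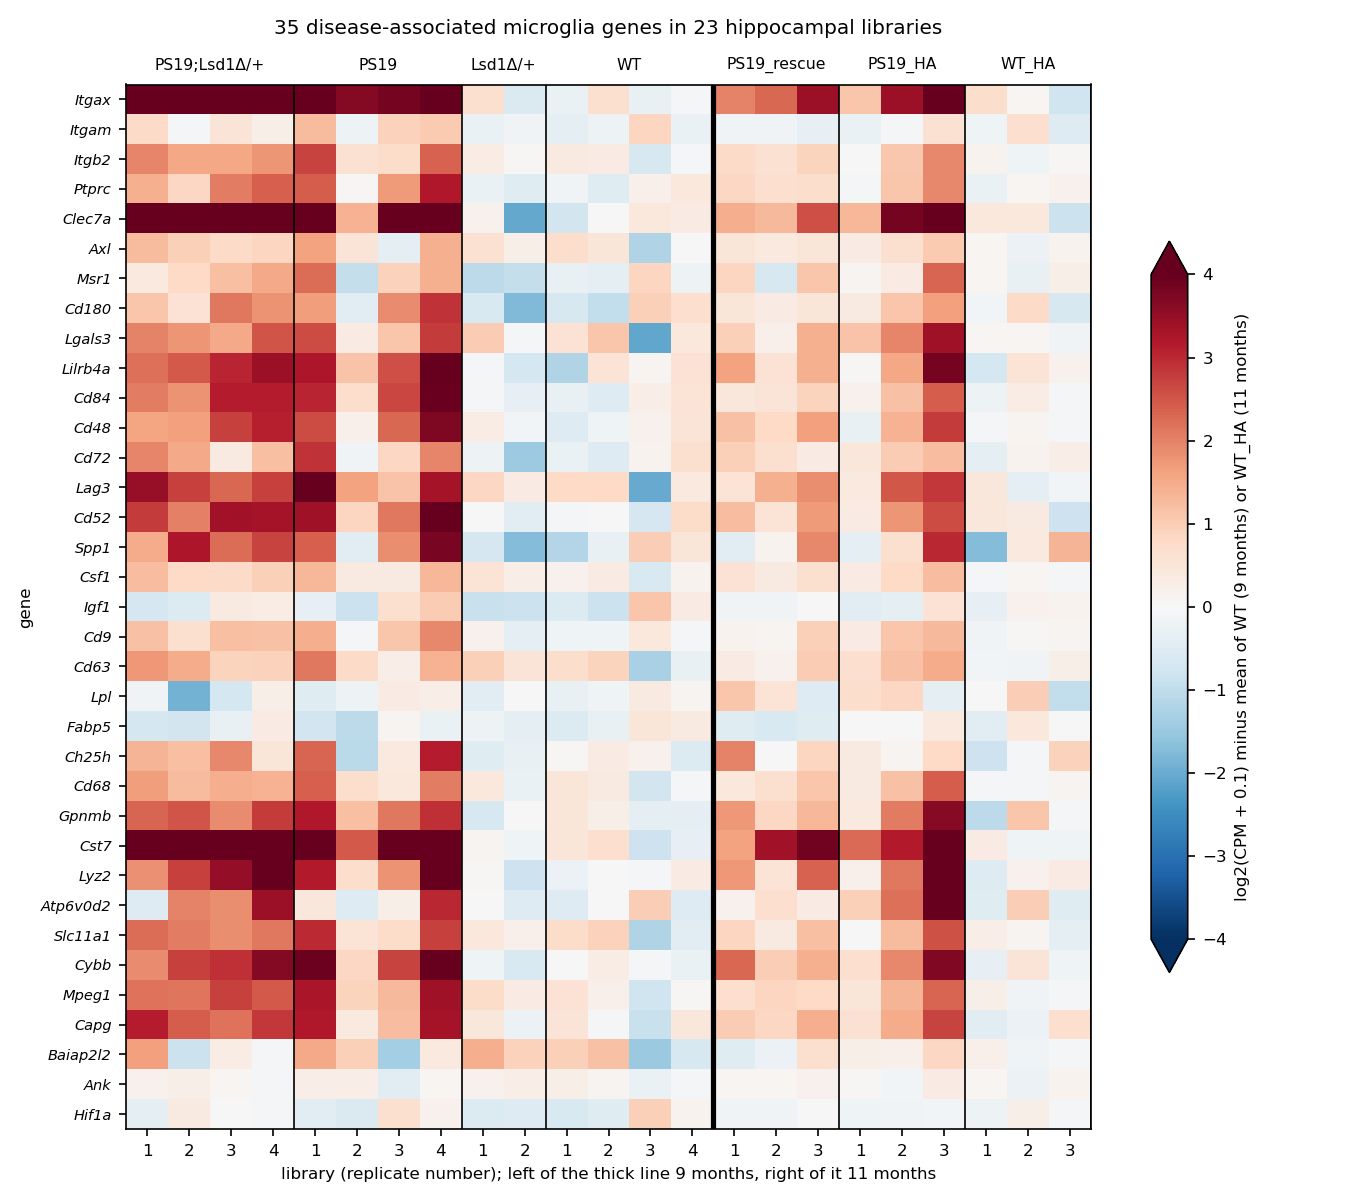
Level of each of the 35 genes (rows) in each of the 23 libraries (columns, by group), as log2(CPM + 0.1) minus the mean of the WT libraries at 9 months or of the WT_HA libraries at 11 months, with colours ending at 4 in either direction. PS19 replicate 2 is the palest PS19 column, and PS19_HA replicate 3 is the darkest of the 11-month columns, being the highest of its group for 34 of 35 genes.

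At 11 months, 33 of the 34 members that passed the count filter were higher in PS19_HA than in WT_HA, with a median log2 difference of 1.43, against 0.00 for all 19290 genes, of which 50.5% were higher. Atp6v0d2 had too few reads for the edgeR fit, but DESeq2 called it higher. DESeq2 called 12 of the 35 higher (0.594% of all genes), among them Itgax, Clec7a, Cst7, Lgals3, Csf1 and Cd63. With edgeR 24 had an unadjusted p under 0.05 and were higher (5.91% of all genes), none was lower (2.72%), none passed after adjustment (0.0156% of all genes did), and the lowest adjusted p was 0.454. The 3 PS19_HA libraries lay above all 3 WT_HA libraries for 12 of the 34 (6.32% of all genes) and below them for none (7.76%). DESeq2 with the replicate block called 15, with 225 genes higher and 54 lower in all, against 113 and 14 without it.

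The PS19_HA libraries differed from one another for nearly every member. PS19_HA replicate 3, the male-type library of its group, was the highest of the 3 for 34 of 35 genes, and replicate 1 was the lowest for 31. PS19_HA replicates 1, 2 and 3 were above every WT_HA library for 13, 26 and 30 members. WT_HA replicates 1, 2 and 3 were each above the other 2 WT_HA libraries for 10, 13 and 12 members. The count for PS19_HA replicate 1 was thus near that of the controls, and the share over all genes was not computed. The median log2 difference from WT_HA was 0.81 without PS19_HA replicate 3, 1.71 without replicate 2 and 1.90 without replicate 1, and 1.22 with library sex as a covariate. DESeq2 called 7 members in both cohorts (Cd68, Clec7a, Cst7, Cybb, Itgax, Lag3 and Mpeg1). That is 43.8% of the members it called at 9 months and 58.3% of those at 11 months, and the 2 comparisons share no library. The overlap over all genes was not counted, so whether these shares are particular to the members is not known.

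**Figure D2:**
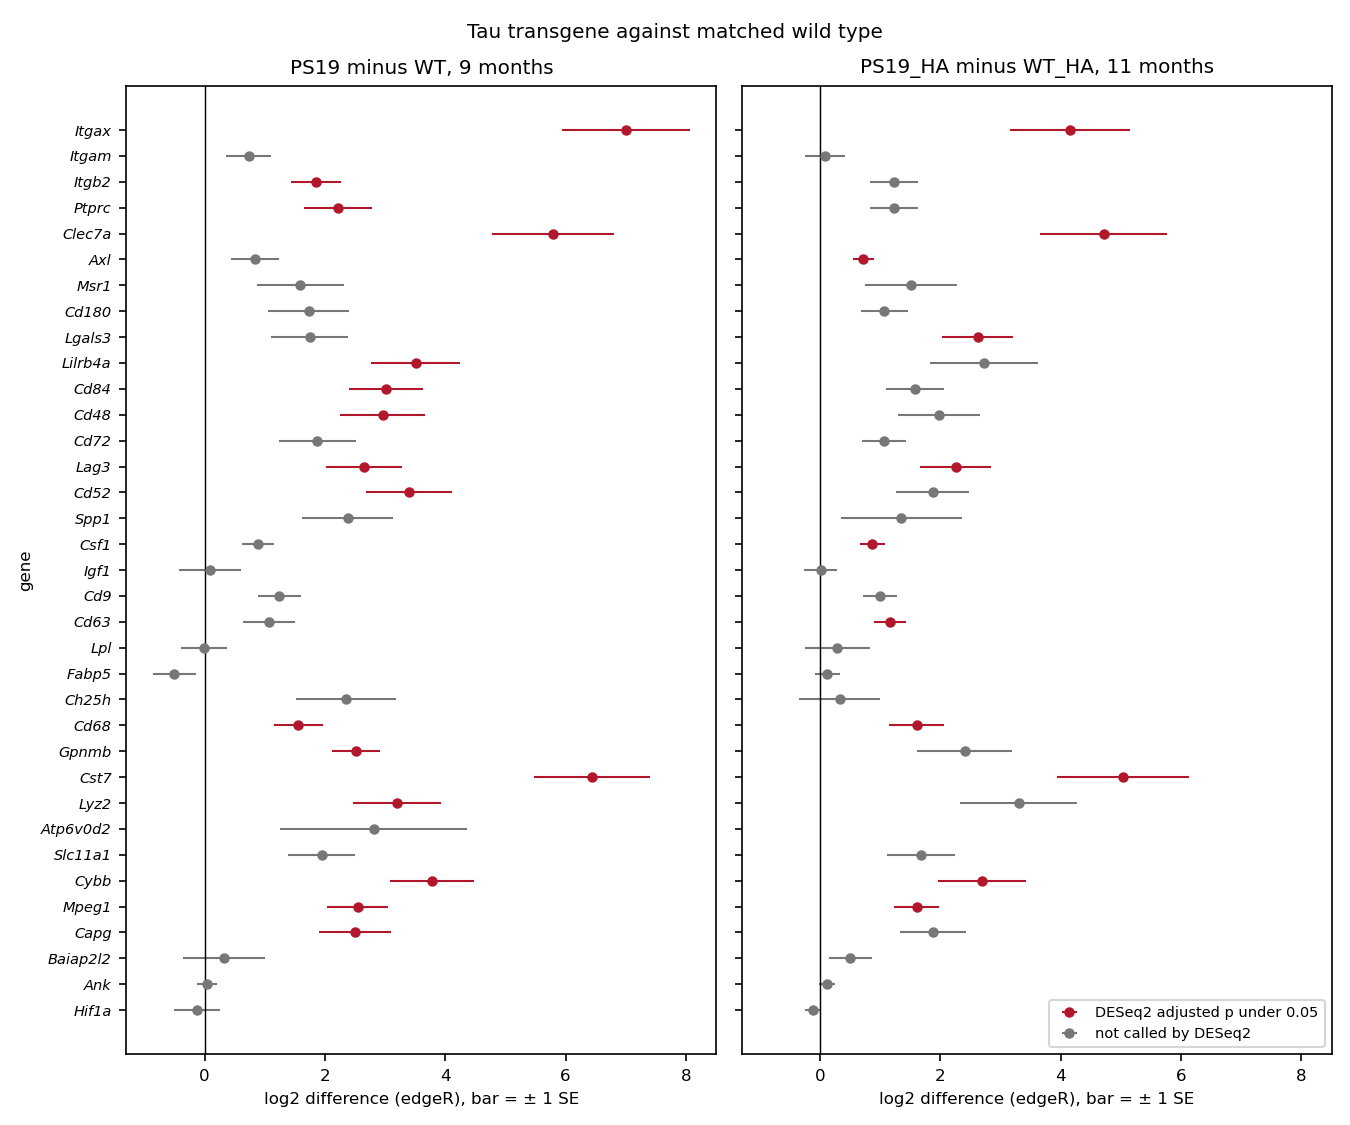
The log2 difference of each of the 35 genes (edgeR, bars ± 1 SE) for PS19 minus WT at 9 months (left, n = 4 and 4) and PS19_HA minus WT_HA at 11 months (right, n = 3 and 3), with DESeq2's calls in red. Itgax, Clec7a and Cst7 lie farthest to the right in both panels, between 4.16 and 7.0, and Igf1, Lpl, Fabp5, Ank and Hif1a lie between -0.50 and 0.29. Atp6v0d2 has no edgeR value at 11 months.

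Itgax encodes CD11c, the alpha X integrin chain (chromosome 7, 128129547 to 128150657, plus strand, GRCm38). It had 14.6, 14.5, 13.6 and 31.7 CPM in PS19 Lsd1 heterozygotes and 17.2, 2.93, 3.26 and 54.1 CPM in PS19, against 0.269 and 0.0561 CPM in Lsd1 heterozygotes and 0.0961, 0.266, 0.0905 and 0.123 CPM in WT. Every library with the transgene lay above every library without it, and PS19 replicates 2 and 3 lay far below replicates 1 and 4. The PS19 mean was 135-fold the WT mean (log2 difference 7.0 at 9 months, SE 1.06, with adjusted p of 0.0615 from edgeR and 2e-11 from DESeq2). At 11 months Itgax had 2.66, 3.37 and 7.48 CPM in PS19_rescue and 1.41, 7.39 and 26.1 CPM in PS19_HA, against 1.04, 0.644 and 0.308 CPM in WT_HA, so that PS19_HA replicate 1 stood just above the highest WT_HA library and all 3 PS19_rescue libraries stood above WT_HA and within the PS19_HA range. The log2 difference of PS19_HA from WT_HA was 4.16 (SE 1.00), with an adjusted p of 0.454 from edgeR and 0.0131 from DESeq2. Itgb2, the beta-2 integrin chain that pairs with CD11c and CD11b, had 18.4, 13.8, 13.9 and 16.1 CPM in PS19 Lsd1 heterozygotes and 31.3, 7.26, 7.86 and 24.3 CPM in PS19, against 5.79 and 4.82 CPM in Lsd1 heterozygotes and 6.05, 5.89, 2.99 and 4.54 CPM in WT. PS19 did not overlap WT, and the difference was smaller than for Itgax (log2 difference 1.85 at 9 months, SE 0.42, with adjusted p of 0.179 from edgeR and 0.0045 from DESeq2). Levels of Itgb2 at 11 months were 8.21, 7.36 and 9.04 CPM in PS19_rescue and 4.77, 10.4 and 18.4 CPM in PS19_HA, against 5.33, 4.27 and 4.96 CPM in WT_HA, with PS19_HA replicate 1 inside the WT_HA range and PS19_rescue above it. The other 2 genes of this kind, Itgam (CD11b) and the leukocyte phosphatase gene Ptprc (CD45), had log2 differences of 0.74 and 2.22 at 9 months, and DESeq2 called Ptprc only.

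Clec7a encodes Dectin-1, a receptor for beta-glucans (chromosome 6, 129461591 to 129472779, minus strand). It had 7.07, 7.91, 15.1 and 15.7 CPM in PS19 Lsd1 heterozygotes and 13.5, 0.975, 12.7 and 43.4 CPM in PS19, against 0.359 and 0 CPM in Lsd1 heterozygotes and 0.144, 0.310, 0.453 and 0.409 CPM in WT. PS19 replicate 2 was the one transgenic library near WT, although it still lay above all 4 WT libraries, and the PS19 mean was 53.6-fold the WT mean (log2 difference 5.79 at 9 months, SE 1.01, with adjusted p of 0.112 from edgeR and 2.38e-08 from DESeq2). At 11 months the values were 1.54, 1.37 and 3.46 CPM in PS19_rescue and 1.41, 8.42 and 31.7 CPM in PS19_HA, against 0.708, 0.703 and 0.231 CPM in WT_HA. PS19_HA replicate 3 lay far above replicate 2, and PS19_rescue spanned a narrow range above WT_HA. DESeq2 called PS19_HA over WT_HA (log2 difference 4.71, adjusted p = 0.00478) where edgeR did not (0.454). Lgals3 encodes galectin-3, a galactoside-binding lectin that also acts as a TREM2 ligand in mouse. Its 9-month values were 3.11, 2.64, 2.21 and 4.51 CPM in PS19 Lsd1 heterozygotes and 4.82, 0.921, 1.66 and 5.53 CPM in PS19, against 1.53 and 0.673 CPM in Lsd1 heterozygotes and 1.10, 1.64, 0.0905 and 0.981 CPM in WT, where PS19 replicate 2 fell inside the WT range (log2 difference 1.75 at 9 months, SE 0.64, with adjusted p of 0.795 from edgeR and 0.309 from DESeq2). At 11 months Lgals3 had 1.59, 0.915 and 2.28 CPM in PS19_rescue and 1.83, 3.28 and 9.08 CPM in PS19_HA, against 0.832, 0.820 and 0.693 CPM in WT_HA, with no overlap between PS19_HA and WT_HA (log2 difference 2.62, SE 0.59, adjusted p of 0.454 with edgeR and 0.00478 with DESeq2). The other 3 receptors were Axl, a tyrosine kinase that takes up dying cells, the scavenger receptor Msr1 and the Toll-like Cd180. They had log2 differences of 0.84 to 1.73 at 9 months and 0.72 to 1.52 at 11 months, where DESeq2 called Axl (adjusted p = 0.0493).

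**Figure D3:**
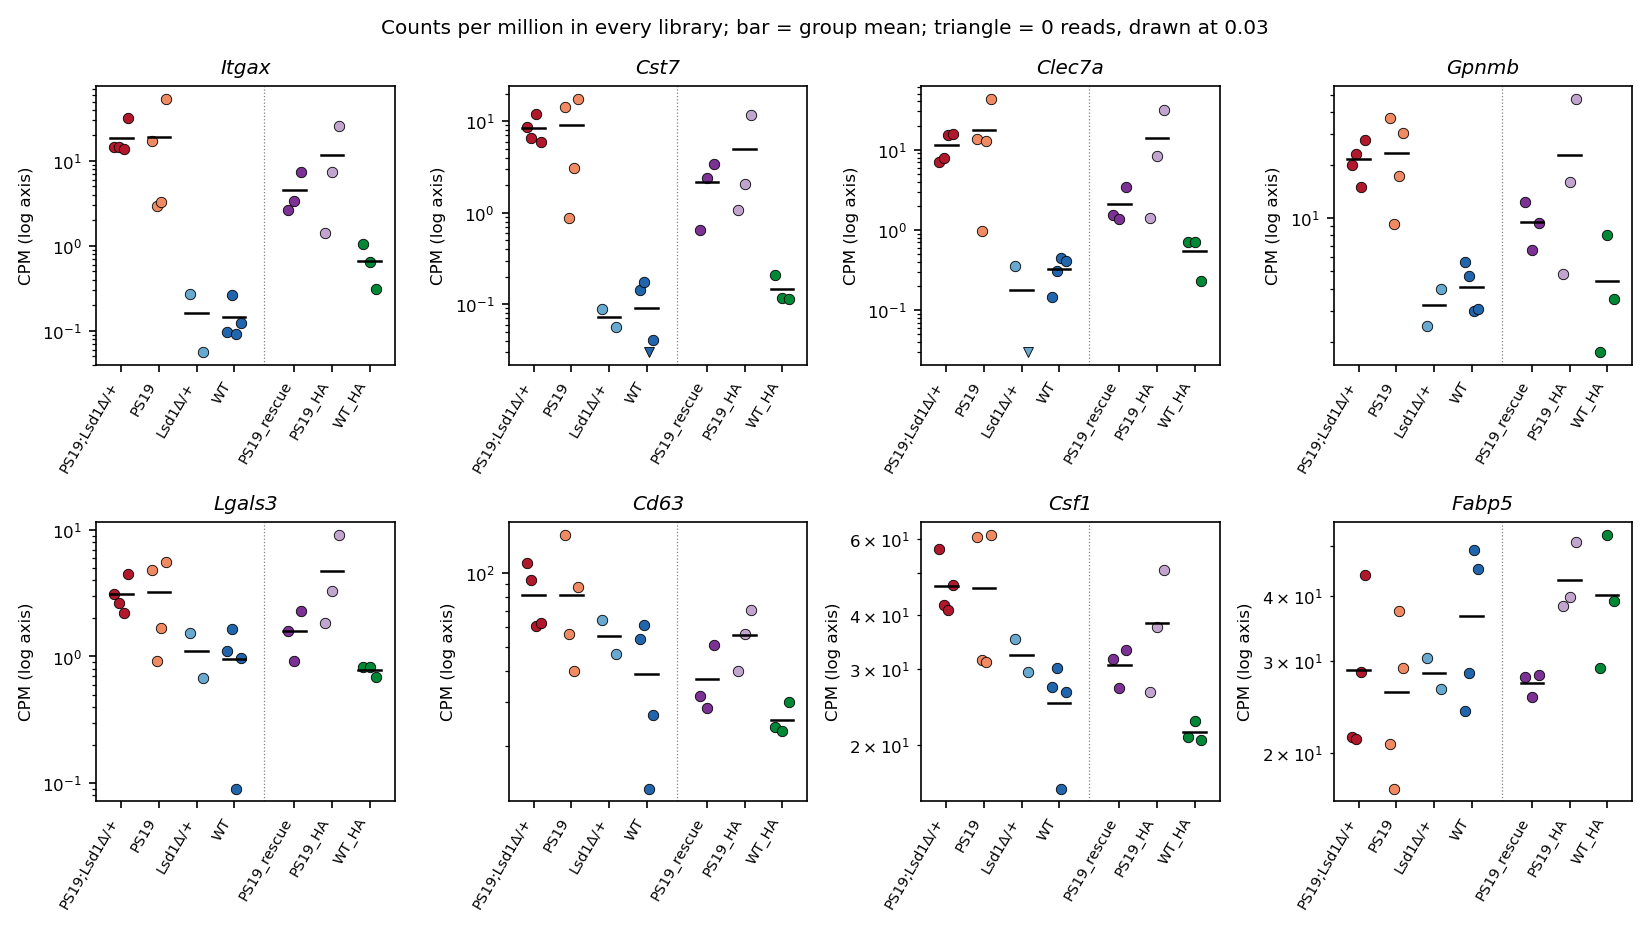
CPM in every library (log axis, 1 point per library, bar at the group mean) for 8 of the genes, with the 9-month groups left of the dotted line and the 11-month groups right of it. Itgax, Cst7 and Clec7a separate the libraries with the transgene from those without it in both cohorts, PS19_HA separates from WT_HA for Lgals3, Cd63 and Csf1, and PS19_rescue lies below both other 11-month groups for Fabp5.

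The 6 immunoglobulin-like, lectin-like and anchored surface proteins were all higher in PS19 than in WT, with log2 differences of 1.88 to 3.51, and DESeq2 called all but Cd72. Cd84, a self-binding receptor of the SLAM family, had 6.18, 5.20, 13.5 and 13.2 CPM in PS19 Lsd1 heterozygotes and 12.5, 2.38, 9.72 and 23.3 CPM in PS19, against 1.39 and 1.12 CPM in Lsd1 heterozygotes and 1.15, 0.974, 1.72 and 2.13 CPM in WT. All transgenic libraries were above all others (log2 difference 3.01 at 9 months, SE 0.61, with adjusted p of 0.126 from edgeR and 0.000135 from DESeq2). The values of Cd84 at 11 months were 5.61, 5.82 and 7.67 CPM in PS19_rescue and 4.64, 9.38 and 22.2 CPM in PS19_HA, against 3.50, 5.04 and 3.85 CPM in WT_HA, with PS19_HA replicate 1 inside the WT_HA range and PS19_rescue just above it. Lag3, an immune checkpoint receptor that binds MHC class II, had 45.3, 26.7, 19.7 and 26.6 CPM in PS19 Lsd1 heterozygotes and 64.4, 12.2, 8.79 and 40.7 CPM in PS19, against 7.0 and 4.94 CPM in Lsd1 heterozygotes and 6.92, 6.90, 0.905 and 5.19 CPM in WT. PS19 did not overlap WT (log2 difference 2.65 at 9 months, SE 0.63, with adjusted p of 0.206 from edgeR and 0.00346 from DESeq2), and WT replicate 3, the library with the highest mitochondrial share, was the lowest. For Lag3 the 11-month values were 3.54, 6.61 and 8.97 CPM in PS19_rescue and 3.19, 14.0 and 17.9 CPM in PS19_HA, against 3.37, 1.87 and 2.23 CPM in WT_HA, and DESeq2 called PS19_HA over WT_HA (adjusted p = 0.0131) although replicate 1 overlapped WT_HA. Cd52, a short glycoprotein anchored in the leukocyte membrane, had 4.05, 2.33, 5.98 and 5.93 CPM in PS19 Lsd1 heterozygotes and 6.10, 0.975, 2.46 and 13.5 CPM in PS19, against 0.494 and 0.337 CPM in Lsd1 heterozygotes and 0.480, 0.487, 0.272 and 0.900 CPM in WT. PS19 replicate 2 exceeded the highest WT library by a small margin (log2 difference 3.40 at 9 months, SE 0.72, with adjusted p of 0.144 from edgeR and 0.00025 from DESeq2). In the virus cohort Cd52 had 2.42, 1.46 and 3.38 CPM in PS19_rescue and 1.23, 3.53 and 6.46 CPM in PS19_HA, against 1.37, 1.29 and 0.50 CPM in WT_HA, with overlap between PS19_HA and WT_HA and none between PS19_rescue and WT_HA. The 3 others, Lilrb4a, Cd48 and Cd72, had log2 differences of 1.06 to 2.72 at 11 months, and DESeq2 called none of them there.

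Among the secreted factors, Csf1, the ligand that keeps microglia alive and dividing, had 56.8, 42.1, 41.1 and 46.9 CPM in PS19 Lsd1 heterozygotes and 60.7, 31.5, 31.2 and 61.3 CPM in PS19, against 35.2 and 29.4 CPM in Lsd1 heterozygotes and 27.3, 30.2, 15.8 and 26.5 CPM in WT. PS19 replicates 2 and 3 were just above the highest WT library, so the groups did not overlap, although neither tool called the gene (log2 difference 0.89 at 9 months, SE 0.26, with adjusted p of 0.406 from edgeR and 0.126 from DESeq2). At 11 months Csf1 had 31.7, 27.2 and 33.2 CPM in PS19_rescue and 26.6, 37.6 and 50.9 CPM in PS19_HA, against 20.8, 22.8 and 20.6 CPM in WT_HA, in the order PS19_HA, PS19_rescue, WT_HA by group mean and with WT_HA below every PS19 library. DESeq2 called PS19_HA over WT_HA at log2 0.87 (SE 0.21; adjusted p = 0.0381, and 0.454 by edgeR). Spp1, osteopontin, had 9.74, 32.7, 16.5 and 22.5 CPM in PS19 Lsd1 heterozygotes and 18.1, 2.44, 12.6 and 49.0 CPM in PS19, against 2.1 and 0.953 CPM in Lsd1 heterozygotes and 1.44, 2.74, 6.88 and 4.82 CPM in WT. PS19 overlapped WT through replicate 2, and PS19 Lsd1 heterozygotes lay above all WT libraries (log2 difference 2.38 at 9 months, SE 0.76, with adjusted p of 0.538 from edgeR and 0.0933 from DESeq2). In the 11-month groups Spp1 varied within each group, at 4.78, 7.20 and 25.2 CPM in PS19_rescue and 5.07, 10.2 and 53.7 CPM in PS19_HA, against 1.87, 8.61 and 16.9 CPM in WT_HA, and the groups overlapped throughout. Igf1, an insulin-like growth factor, had log2 differences of 0.09 at 9 months and 0.01 at 11 months, both within 1 SE of 0.

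The tetraspanins CD9 and CD63 organise membrane proteins, and CD63 marks late endosomes and lysosomes. Cd9 had 69.7, 48.0, 71.4 and 70.1 CPM in PS19 Lsd1 heterozygotes and 85.0, 30.0, 66.8 and 119 CPM in PS19, against 34.9 and 23.9 CPM in Lsd1 heterozygotes and 27.3, 27.4, 41.5 and 30.1 CPM in WT. PS19 replicate 2 lay at the WT level and the other 3 PS19 libraries lay above it (log2 difference 1.24 at 9 months, SE 0.36, with adjusted p of 0.396 from edgeR and 0.1 from DESeq2). At 11 months Cd9 had 36.7, 35.5 and 64.8 CPM in PS19_rescue and 41.8, 71.8 and 81.6 CPM in PS19_HA, against 29.9, 33.8 and 35.7 CPM in WT_HA, with PS19_HA above all WT_HA libraries and PS19_rescue replicates 1 and 2 close to them. Cd63 had 109, 93.1, 60.9 and 62.5 CPM in PS19 Lsd1 heterozygotes and 142, 56.7, 39.9 and 87.3 CPM in PS19, against 64.1 and 47.1 CPM in Lsd1 heterozygotes and 54.1, 61.6, 13.4 and 26.6 CPM in WT. WT replicates 1 and 2 lay well above WT replicates 3 and 4, so the groups overlapped, while PS19 was the higher of the same-numbered pair in replicates 1, 3 and 4 (log2 difference 1.07 at 9 months, SE 0.43, with adjusted p of 0.985 from edgeR and 0.737 from DESeq2). In the virus cohort the values were 31.7, 28.5 and 50.9 CPM in PS19_rescue and 40.0, 56.7 and 70.9 CPM in PS19_HA, against 23.7, 22.9 and 29.9 CPM in WT_HA, where PS19_HA did not overlap WT_HA and DESeq2 called the difference at log2 1.16 (SE 0.26; adjusted p = 0.0131, and 0.454 by edgeR).

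Of the 3 lipid-handling genes, Lpl and Fabp5 did not share the pattern, while Ch25h was higher with the transgene at 9 months, at a low level. Lpl, lipoprotein lipase, had 70.9, 21.4, 48.1 and 92.2 CPM in PS19 Lsd1 heterozygotes and 56.7, 68.5, 99.6 and 94.3 CPM in PS19, against 58.6 and 77.8 CPM in Lsd1 heterozygotes and 63.8, 70.7, 101 and 85.1 CPM in WT. All groups overlapped, the log2 difference of PS19 from WT was -0.01 (SE 0.38), and the lowest library was PS19 Lsd1 heterozygote replicate 2, in which the summed hippocampal neuron markers were also lowest, at 1686 CPM, against 3817 to 7303 CPM in the other 3 libraries of that group, and whether the 2 are linked was not tested. At 11 months Lpl had 115, 78.4 and 37.3 CPM in PS19_rescue and 86.9, 94.6 and 41.0 CPM in PS19_HA, against 52.9, 106 and 27.2 CPM in WT_HA, with the lowest value in replicate 3 of every group. Fabp5, a fatty acid binding protein, had 21.4, 21.3, 28.6 and 43.9 CPM in PS19 Lsd1 heterozygotes and 20.8, 17.1, 37.5 and 29.2 CPM in PS19, against 30.4 and 26.6 CPM in Lsd1 heterozygotes and 24, 28.5, 49.2 and 45.1 CPM in WT. The PS19 mean was below the WT mean and the groups overlapped (log2 difference -0.50, SE 0.35, adjusted p of 1 with edgeR and 1 with DESeq2). For Fabp5 the 11-month values were 28, 25.6 and 28.2 CPM in PS19_rescue and 38.4, 39.8 and 50.9 CPM in PS19_HA, against 29.2, 52.5 and 39.2 CPM in WT_HA. Ch25h, cholesterol 25-hydroxylase, was low, at 0.741, 0.650, 1.14 and 0.356 CPM in PS19 Lsd1 heterozygotes and 1.56, 0.0542, 0.333 and 2.76 CPM in PS19, against 0.135 and 0.168 CPM in Lsd1 heterozygotes and 0.240, 0.310, 0.272 and 0.123 CPM in WT. PS19 replicates 1 and 4 were high and replicate 2 was the lowest of all 9-month libraries (log2 difference 2.35 at 9 months, SE 0.83, with adjusted p of 0.703 from edgeR and 0.337 from DESeq2). All PS19 Lsd1 heterozygote libraries lay above all WT libraries. In the 11-month groups Ch25h had 1.77, 0.374 and 0.760 CPM in PS19_rescue and 0.511, 0.415 and 0.734 CPM in PS19_HA, against 0.166, 0.351 and 0.808 CPM in WT_HA and overlapped throughout.

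Genes of the lysosome and of degradation included some of the largest differences. Cst7, which encodes cystatin F, an inhibitor of lysosomal cysteine proteases (chromosome 2, 150570415 to 150578944, plus strand), had 8.75, 6.57, 12.1 and 5.88 CPM in PS19 Lsd1 heterozygotes and 14.5, 0.867, 3.06 and 17.6 CPM in PS19, against 0.0898 and 0.0561 CPM in Lsd1 heterozygotes and 0.144, 0.177, 0 and 0.0409 CPM in WT. The transgenic libraries held 16 to 421 reads and the others 0 to 4, with PS19 replicate 2 the lowest of the transgenic libraries, and the PS19 mean was 99.5-fold the WT mean (log2 difference 6.44 at 9 months, SE 0.96, with adjusted p of 0.0615 from edgeR and 9.84e-10 from DESeq2). Cst7 at 11 months had 0.650, 2.37 and 3.42 CPM in PS19_rescue and 1.06, 2.07 and 11.7 CPM in PS19_HA, against 0.208, 0.117 and 0.115 CPM in WT_HA, so all PS19 libraries lay above WT_HA whichever virus they received. DESeq2 called PS19_HA over WT_HA (log2 difference 5.04, SE 1.10; adjusted p = 6.96e-05, and 0.454 by edgeR). Gpnmb, a transmembrane glycoprotein of lysosomes (chromosome 6, 49036546 to 49070929, plus strand), had 20.1, 23.2, 15.0 and 27.8 CPM in PS19 Lsd1 heterozygotes and 37.0, 9.26, 17.4 and 30.5 CPM in PS19, against 2.47 and 3.98 CPM in Lsd1 heterozygotes and 5.62, 4.69, 2.99 and 3.07 CPM in WT. PS19 was above WT in every library and the estimate was among the more precise (log2 difference 2.52 at 9 months, SE 0.40, with adjusted p of 0.084 from edgeR and 1.35e-06 from DESeq2). Its 11-month values were 12.4, 6.57 and 9.42 CPM in PS19_rescue and 4.85, 16.0 and 47.5 CPM in PS19_HA, against 1.75, 8.02 and 3.50 CPM in WT_HA, where WT_HA replicate 2 overlapped PS19_HA and PS19_rescue. Cd68, a lysosomal membrane glycoprotein widely used to stain phagocytic microglia, had 18.4, 13.9, 15.7 and 15.0 CPM in PS19 Lsd1 heterozygotes and 30.0, 9.26, 7.66 and 23.8 CPM in PS19, against 7.67 and 4.71 CPM in Lsd1 heterozygotes and 7.97, 7.21, 3.35 and 5.32 CPM in WT. PS19 replicate 3 fell just inside the WT range, and PS19 Lsd1 heterozygotes were above it (log2 difference 1.56 at 9 months, SE 0.40, with adjusted p of 0.263 from edgeR and 0.0266 from DESeq2). At 11 months Cd68 had 6.14, 7.07 and 9.92 CPM in PS19_rescue and 5.83, 10.4 and 24.7 CPM in PS19_HA, against 4.41, 4.33 and 4.92 CPM in WT_HA, without overlap of either PS19 group with WT_HA (DESeq2 adjusted p = 0.0483 for PS19_HA). The 3 others were lysozyme (Lyz2), the proton pump subunit Atp6v0d2 and the metal transporter Slc11a1. They had log2 differences of 1.95 to 3.20 at 9 months, and Lyz2 was called by DESeq2 there. At 11 months DESeq2 called Atp6v0d2 and neither of the others. Atp6v0d2 had 4, 13 and 168 reads in PS19_HA, and its replicate 1 (0.170 CPM) lay below WT_HA replicate 2 (0.176 CPM).

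The 2 effectors were Cybb, the catalytic subunit of the phagocyte NADPH oxidase, and Mpeg1, perforin-2, a pore-forming protein of macrophages. Cybb had 2.37, 4.36, 4.96 and 8.31 CPM in PS19 Lsd1 heterozygotes and 9.97, 1.08, 4.26 and 16.0 CPM in PS19, against 0.494 and 0.337 CPM in Lsd1 heterozygotes and 0.576, 0.708, 0.543 and 0.450 CPM in WT. No transgenic library overlapped the others (log2 difference 3.78 at 9 months, SE 0.70, with adjusted p of 0.124 from edgeR and 9.77e-06 from DESeq2). The 11-month values of Cybb were 6.73, 2.66 and 3.57 CPM in PS19_rescue and 2.09, 5.15 and 17.8 CPM in PS19_HA, against 0.999, 1.87 and 1.12 CPM in WT_HA, again with every PS19 library above WT_HA. Mpeg1 had 69.2, 66.6, 102 and 84.0 CPM in PS19 Lsd1 heterozygotes and 146, 28.1, 37.3 and 160.3 CPM in PS19, against 25.3 and 18.8 CPM in Lsd1 heterozygotes and 22.7, 17.3, 8.60 and 15.5 CPM in WT. PS19 did not overlap WT, and PS19 replicates 2 and 3 lay well below replicates 1 and 4 (log2 difference 2.54 at 9 months, SE 0.51, with adjusted p of 0.126 from edgeR and 0.000194 from DESeq2). In the virus cohort Mpeg1 had 44.4, 50.0 and 48.3 CPM in PS19_rescue and 39.2, 71.5 and 140.3 CPM in PS19_HA, against 32.5, 25.2 and 26.2 CPM in WT_HA, and the 3 PS19_rescue libraries lay close to one another, above WT_HA and below PS19_HA replicates 2 and 3. DESeq2 gave adjusted p = 0.0156 for Cybb and 0.00757 for Mpeg1 between PS19_HA and WT_HA.

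The last 4 genes act in the cytoskeleton, transport and transcription. Capg, an actin-capping protein of macrophages, had 9.09, 5.39, 4.60 and 7.30 CPM in PS19 Lsd1 heterozygotes and 9.36, 1.25, 2.33 and 10.3 CPM in PS19, against 1.30 and 0.785 CPM in Lsd1 heterozygotes and 1.39, 0.885, 0.453 and 1.31 CPM in WT. PS19 replicate 2 fell inside the WT range and the other PS19 libraries above it (log2 difference 2.5 at 9 months, SE 0.60, with adjusted p of 0.206 from edgeR and 0.00534 from DESeq2). At 11 months Capg had 2.13, 1.83 and 2.89 CPM in PS19_rescue and 1.58, 2.99 and 7.04 CPM in PS19_HA, against 0.708, 0.820 and 1.65 CPM in WT_HA, with PS19_HA replicate 1 inside the WT_HA range and PS19_rescue above it. Baiap2l2, a membrane-bending protein, had 3.90, 0.611, 1.49 and 1.13 CPM in PS19 Lsd1 heterozygotes and 3.59, 2.38, 0.399 and 1.59 CPM in PS19, against 3.46 and 2.36 CPM in Lsd1 heterozygotes and 2.40, 2.79, 0.362 and 0.736 CPM in WT. All groups overlapped, and replicate 1 was above replicates 3 and 4 in PS19 Lsd1 heterozygotes, PS19 and WT alike (log2 difference of PS19 from WT 0.32, SE 0.69). The 11-month values of Baiap2l2 were 0.709, 0.873 and 1.67 CPM in PS19_rescue and 1.23, 1.2 and 1.93 CPM in PS19_HA, against 1.21, 0.937 and 1.00 CPM in WT_HA, with overlap throughout. Ank and Hif1a had log2 differences of 0.04 and -0.12 at 9 months and 0.12 and -0.12 at 11 months, all within 1 SE of 0. They were also the genes with the highest WT level per kilobase.

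The LSD1 virus was compared with the HA virus gene by gene in PS19 mice. Of the 34 tested members, 33 were lower in PS19_rescue than in PS19_HA, with a median log2 difference of -0.74, against -0.01 for all genes. None was called by edgeR (0% of all genes were) or by DESeq2 (0.00542% were lower and 0.00271% higher). With edgeR's quasi-likelihood test across all genes, unadjusted p was under 0.05 for 5 members that were lower (1.19% of all genes) and none that was higher (0.627%): in order of p, Fabp5, Clec7a, Lgals3, Cd63 and Mpeg1. All 3 PS19_rescue libraries lay below all 3 PS19_HA libraries for Fabp5 alone among the 34 (1.87% of all genes), and for Atp6v0d2, which was too low for the edgeR fit. No member lay above all PS19_HA libraries (8% of all genes).

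The comparison rests to a large extent on PS19_HA replicate 3. The mean of the 3 PS19_rescue libraries was below PS19_HA replicate 3 for 32 of the 35 genes and below replicate 2 for 28, but above replicate 1 for 29. Without PS19_HA replicate 3 the members' median log2 difference was -0.07 and 14 of 34 were higher in PS19_rescue. Without PS19_HA replicate 1 it was -1.10, and without PS19_HA replicate 2 it was -0.77. With library sex as a covariate the median was -0.59. PS19_rescue was the more even group: the coefficient of variation was smaller in PS19_rescue than in PS19_HA for 29 of 35 genes, with medians of 31.1% and 65.2%.

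Fabp5, which neither tool called between PS19_HA and WT_HA, was lowest in PS19_rescue. It had 28, 25.6 and 28.2 CPM in PS19_rescue, below all libraries of both PS19_HA and WT_HA, and averaged 27.3 ± 1.47 CPM in PS19_rescue, 43.0 ± 6.88 CPM in PS19_HA and 40.3 ± 11.7 CPM in WT_HA (SD, n = 3 each). Its log2 difference of PS19_rescue from PS19_HA was -0.71 (SE 0.21; adjusted p = 1 by edgeR). Clec7a averaged 2.12 ± 1.16 CPM in PS19_rescue and 13.9 ± 15.9 CPM in PS19_HA, a log2 difference of -2.74 (SE 0.92; adjusted p = 1 by edgeR), and only PS19_rescue replicate 2 lay below the lowest PS19_HA library. Lgals3 averaged 1.6 ± 0.682 CPM in PS19_rescue and 4.73 ± 3.84 CPM in PS19_HA (log2 -1.62, SE 0.55; adjusted p = 1 by edgeR), with replicates 1 and 2 of PS19_rescue below the lowest PS19_HA library. Atp6v0d2, named after its values were seen, had 0.0591, 0.125 and 0.0760 CPM in PS19_rescue and 0.170, 0.539 and 6.49 CPM in PS19_HA, against 0, 0.176 and 0 CPM in WT_HA, which is 1 to 3 reads per PS19_rescue library and 4, 13 and 168 reads in PS19_HA. Ch25h was the one tested gene higher in PS19_rescue than in PS19_HA (log2 0.70, SE 0.64), through PS19_rescue replicate 1.

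For the 20 members whose mean log2 CPM (prior count 2) was at least 1 higher in PS19_HA than in WT_HA, the share of that difference still present in PS19_rescue was computed as a description, since both differences use the same WT_HA libraries. It ran from 14.1% to 93.2%, with a median of 63.2%, and the PS19_rescue mean lay between the other 2 groups for all 20. The 20 were picked for a high PS19_HA mean, which by itself favours a PS19_rescue mean below it. Shares without PS19_HA replicate 3, the highest library of its group for most members, were not computed. The lowest share, that of Atp6v0d2, rests on 1 to 3 reads per PS19_rescue library and was 27.3% with a prior count of 0.5. Of these, 4 genes kept 75% or more of the difference: Cd48 with 93.2%, Cst7 with 80.2%, Itgax with 79.3% and Cybb with 75.1%. Another 9 kept 50% to 75%, namely Capg (68.5%), Lyz2 (67.2%), Lag3 (66.4%), Lilrb4a (66.3%), Gpnmb (63.2%), Slc11a1 (63.1%), Cd52 (74.1%), Mpeg1 (55.3%) and Cd68 (54.7%). The other 7 kept less than 50%, namely Spp1 (49.5%), Cd84 (48.9%), Clec7a (48.9%), Cd63 (45.4%), Cd180 (40.7%), Lgals3 (40.1%) and Atp6v0d2 (14.1%). With a prior count of 0.5 Clec7a kept 50.6%, and Itgb2 (75.5%) and Msr1 (48.1%) also reached a difference of 1. The spread of these shares over the 3 PS19_rescue libraries was wide, from an SD of 6.4 percentage points for Mpeg1 to 113 for Spp1, and the order of neighbouring genes is within it.

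**Figure D4:**
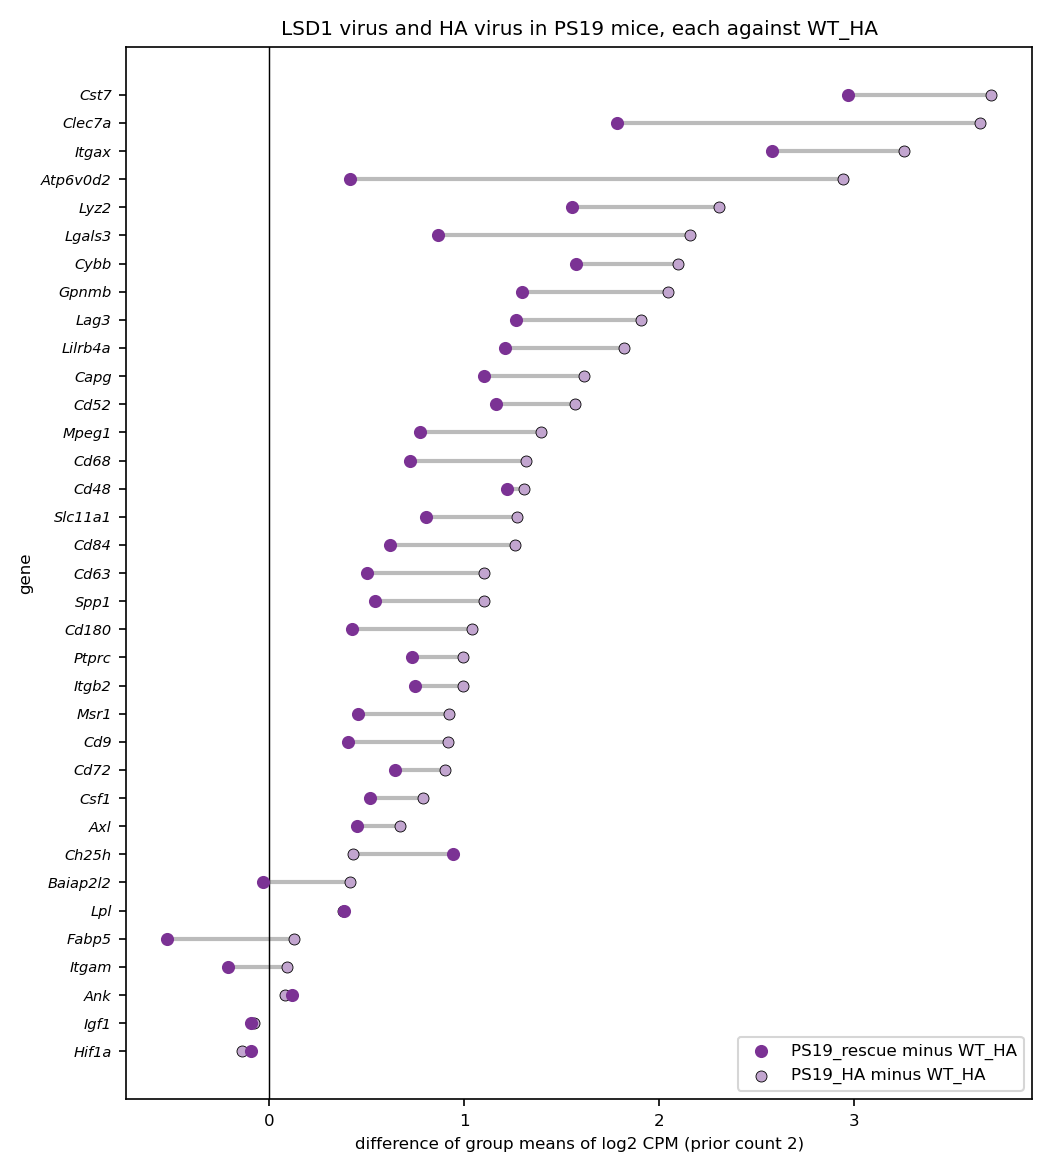
Difference of the mean log2 CPM from WT_HA for PS19_rescue (dark points) and PS19_HA (pale points), for each of the 35 genes in the order of the PS19_HA difference, n = 3 libraries a group. The dark point lies left of the pale one for 31 genes and stays right of 0 for most. By group means of CPM, which are not plotted here, PS19_rescue is intermediate for 28 genes.

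PS19_rescue was also set against WT_HA. Of 34 members 30 were higher in PS19_rescue, with a median log2 difference of 0.72, against 0.00 for all genes. All 3 PS19_rescue libraries lay above all 3 WT_HA libraries for 20 members (6.86% of all genes) and below them for Fabp5 (3.91% of all genes). With edgeR 6 members were higher and 1, Fabp5, was lower at an unadjusted p under 0.05 (2.33% and 1.68% of all genes), and none passed adjustment (0.0207% of all genes did). DESeq2 called 1 member, Cst7 (log2 difference 3.8, edgeR SE 1.11; adjusted p of 0.0496 with DESeq2 and 0.864 with edgeR), against 0.0551% of all genes. PS19_rescue replicates 1, 2 and 3 were above every WT_HA library for 26, 20 and 27 members. WT_HA replicates 1, 2 and 3 were each above the other 2 WT_HA libraries for 10, 13 and 12 members, and the share over all genes was not computed.

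Loss of 1 Lsd1 allele was compared in mice with and without the transgene. PS19 Lsd1 heterozygotes were set against WT first: 31 of 35 members were higher, with a median log2 difference of 1.68, against 0.00 for all genes. DESeq2 called 14 of them (0.472% of all genes), among them Itgax, Cst7, Clec7a, Gpnmb, Lyz2, Cybb and Capg. With edgeR 24 were higher at an unadjusted p under 0.05 (4.28% of all genes), none was lower (2.03%) and none passed adjustment (0.00497% of all genes did). All 4 PS19 Lsd1 heterozygote libraries lay above all 4 WT libraries for 23 members (3.35% of all genes) and below them for none (1.05%). With the replicate block edgeR called 1 member (Itgax, adjusted p = 0.0208), with 3 genes higher and 1 lower in all. DESeq2 with the block called 24 members, with 523 genes higher and 330 lower in all, against 106 and 4 without it. With the compared groups alone edgeR called 6 members, with 22 genes called in all. Without the library labelled PS19;Lsd1Δ/+ replicate 3 the median log2 difference was 1.71. Within replicates 1 and 2 it was 1.49, and within replicates 3 and 4 it was 1.97.

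Between PS19 Lsd1 heterozygotes and PS19, 29 of the 35 genes were lower and 6 higher, with a median log2 difference of -0.17, against -0.02 for all genes. No member had an unadjusted edgeR p under 0.05 (0.974% of all genes did and were higher, 0.278% lower). None was called by edgeR (0% of all genes) or by DESeq2 (0.00263% higher, 0% lower). No member separated the groups (0.388% of all genes were higher without overlap and 0.268% lower). The direction depended on single PS19 libraries: the median was 0.14 without PS19 replicate 4, 0.07 without replicate 1, -0.45 without replicate 2 and -0.41 without replicate 3, and 0.00 with the replicate block. Without the library labelled PS19;Lsd1Δ/+ replicate 3 it was -0.19. As to the block, 0 of 4 libraries correlated best with their own number between these groups. The mean of PS19 Lsd1 heterozygotes was below PS19 replicates 1 and 4 for 27 and 33 members, and above PS19 replicates 2 and 3 for 32 and 26. PS19 Lsd1 heterozygotes were the more even group, with a smaller coefficient of variation than PS19 for 32 of 35 genes and medians of 37.2% and 74.2%. Itgax averaged 18.6 ± 8.73 CPM in PS19 Lsd1 heterozygotes and 19.4 ± 24.1 CPM in PS19, and Cd68 averaged 15.7 ± 1.92 and 17.7 ± 11.0 CPM in the same order (SD, n = 4 each).

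Without the transgene, 22 of the 35 genes were lower and 13 higher in Lsd1 heterozygotes than in WT, with a median log2 difference of -0.36, against -0.02 for all genes. No member had an unadjusted p under 0.05 with edgeR (0.189% of all genes did and were higher, 1.09% lower), and edgeR (0% of all genes) and DESeq2 (0% higher, 0.00263% lower) called none. The groups were separated downward for 1 member (5.8% of all genes) and upward for none (5.37%). The median was 0.03 with the replicate block and -0.17 within replicates 1 and 2, the only numbers that Lsd1 heterozygotes have. It was -0.03 without Lsd1 heterozygote replicate 2 and -0.47 without Lsd1 heterozygote replicate 1. The effect of losing an allele with tau minus that without tau had a median of -0.06 over the members, against 0.03 for all genes, and edgeR (0% of all genes) and DESeq2 (0.00263% higher) called none. No member had an unadjusted edgeR p under 0.05 (0.731% of all genes higher, 0.104% lower). Without PS19 replicate 4 that median was 0.47, and without PS19 replicate 2 it was -0.30. The tau effect at 9 months minus that at 11 months was above 0 for 26 of 35 members, with a median of 0.39, against -0.02 for all genes. No member had an unadjusted edgeR p under 0.05 there (0.277% of all genes higher, 0.291% lower) or was called by edgeR or DESeq2 (0% of all genes), and the median was 0.01 without PS19 replicate 4, 0.01 without PS19_HA replicate 1 and 1.13 without PS19_HA replicate 3.

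Other microglial genes were summarised as lists that share no gene with the 35. Of 8 pan-microglial genes, such as the complement genes C1qa, C1qb and C1qc, 8 were higher in PS19 than in WT with a median log2 difference of 1.66, DESeq2 called 4, and 22 of the 35 members had a larger difference than that median. At 11 months 8 of 8 were higher in PS19_HA than in WT_HA (median 1.40, 3 called by DESeq2), and 17 of 34 members exceeded it. Of 12 homeostatic genes, such as Csf1r and Cx3cr1, 11 were higher in PS19 (median 0.68, none called) and 11 in PS19_HA (median 0.53, 1 called by DESeq2). Members exceeded the homeostatic median in 29 of 35 cases at 9 months and 26 of 34 at 11 months. Of 15 further genes of the TREM2 pathway and the disease-associated state, 15 were higher in PS19 (median 0.90, 3 called by DESeq2) and 14 in PS19_HA (median 0.62, 3 called). Tyrobp, the TREM2 adaptor, had a log2 difference of 2.05 at 9 months and 1.59 at 11 months, and Trem2 1.89 and 1.71, with no overlap of the groups for Tyrobp in both cohorts and for Trem2 at 11 months alone. In PS19_rescue against PS19_HA the medians were -0.67 for pan-microglial, -0.35 for homeostatic and -0.39 for TREM2-pathway genes, and neither tool called any of them.

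The summed level of the pan-microglial list was higher in most transgenic libraries, although PS19 replicate 3, with 149 CPM, and PS19_HA replicate 1, with 111 CPM, stood at the level of the controls. Its order within a group did not always match that of the members' sum. In PS19 Lsd1 heterozygotes, replicate 4 had the highest members' sum (1078 CPM) and the lowest pan-microglial sum (328 CPM), and in PS19 the members' sum was higher in replicate 4 and the pan-microglial sum in replicate 1. It was 328 to 498 CPM in PS19 Lsd1 heterozygotes and 149 to 895 CPM in PS19, against 143 to 152 CPM in Lsd1 heterozygotes and 60.2 to 169.5 CPM in WT. At 11 months it was 152 to 189 CPM in PS19_rescue and 111 to 424 CPM in PS19_HA, against 87.9 to 118.2 CPM in WT_HA, and its part in the members' differences was not tested. Monocyte and neutrophil markers (8 genes) summed to 0.44 to 10.9 CPM over all 23 libraries, with the maximum in PS19_rescue replicate 1. T and B cell markers (10 genes) summed to 1.23 to 10.5 CPM. The neutrophil marker Ly6g had no reads in PS19 Lsd1 heterozygotes, PS19 or PS19_HA. The T cell marker Cd3d had no reads in Lsd1 heterozygotes or WT_HA. Of the tested monocyte and neutrophil markers, 2 of 3 were higher in PS19 (median log2 difference 0.49) and 2 of 2 in PS19_HA (1.14). For T and B cell markers it was 0 of 2 (-1.47) and 3 of 4 (0.81). Neither tool called any of them. Higher in PS19_HA without overlap were 1 of 8 and 4 of 10 (6.32% of all genes). Border-associated macrophage markers (8 genes) summed to 4.00 to 28.2 CPM, with the maximum in PS19 replicate 1. Of those tested, 7 of 7 were higher in PS19 than in WT (median log2 difference 0.96), with none called. In PS19_HA 2 of 6 were higher than in WT_HA (-0.12), also with none called. Choroid plexus markers (8 genes) varied most, from 191 to 5656 CPM, with 257 to 3432 CPM in PS19_rescue and 822 to 5656 CPM in PS19_HA, against 191 to 1610 CPM in WT_HA. Between groups they moved in the members' direction: 8 of 8 were higher in PS19_HA than in WT_HA (median log2 difference 2.36) and 8 of 8 lower in PS19_rescue than in PS19_HA (-1.34). Neither tool called any of them, and within PS19_HA they were lowest in replicate 3, in which the members were highest. Their part in the members' differences was not tested. Hippocampal neuron markers (8 genes) were present in every library, at 1686 to 9012 CPM. Against WT, 6 were lower in PS19 (median log2 difference -0.16) and 8 in PS19 Lsd1 heterozygotes (-0.32). In PS19_HA 6 were lower than in WT_HA (-0.08), and in PS19_rescue 6 were higher than in PS19_HA (0.23). Neither tool called any of these neuron markers. Of 8 astrocyte markers 8 were higher in PS19 than in WT (median log2 difference 0.32) and 5 in PS19_HA than in WT_HA (0.19). DESeq2 called 1 of them in each, Gfap, a filament protein of reactive astrocytes (log2 2.58 and 1.80, with adjusted p of 2.45e-05 and 0.000422). All 8 oligodendrocyte markers were higher in PS19 Lsd1 heterozygotes than in WT (0.67), in PS19 than in WT (0.47) and in PS19_HA than in WT_HA (0.79), with none called, and of 8 vascular and mural markers 7 were higher in PS19 (0.27) and 2 in PS19_HA (-0.13). The part of these cell types in the members' differences was not tested.

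**Figure D5:**
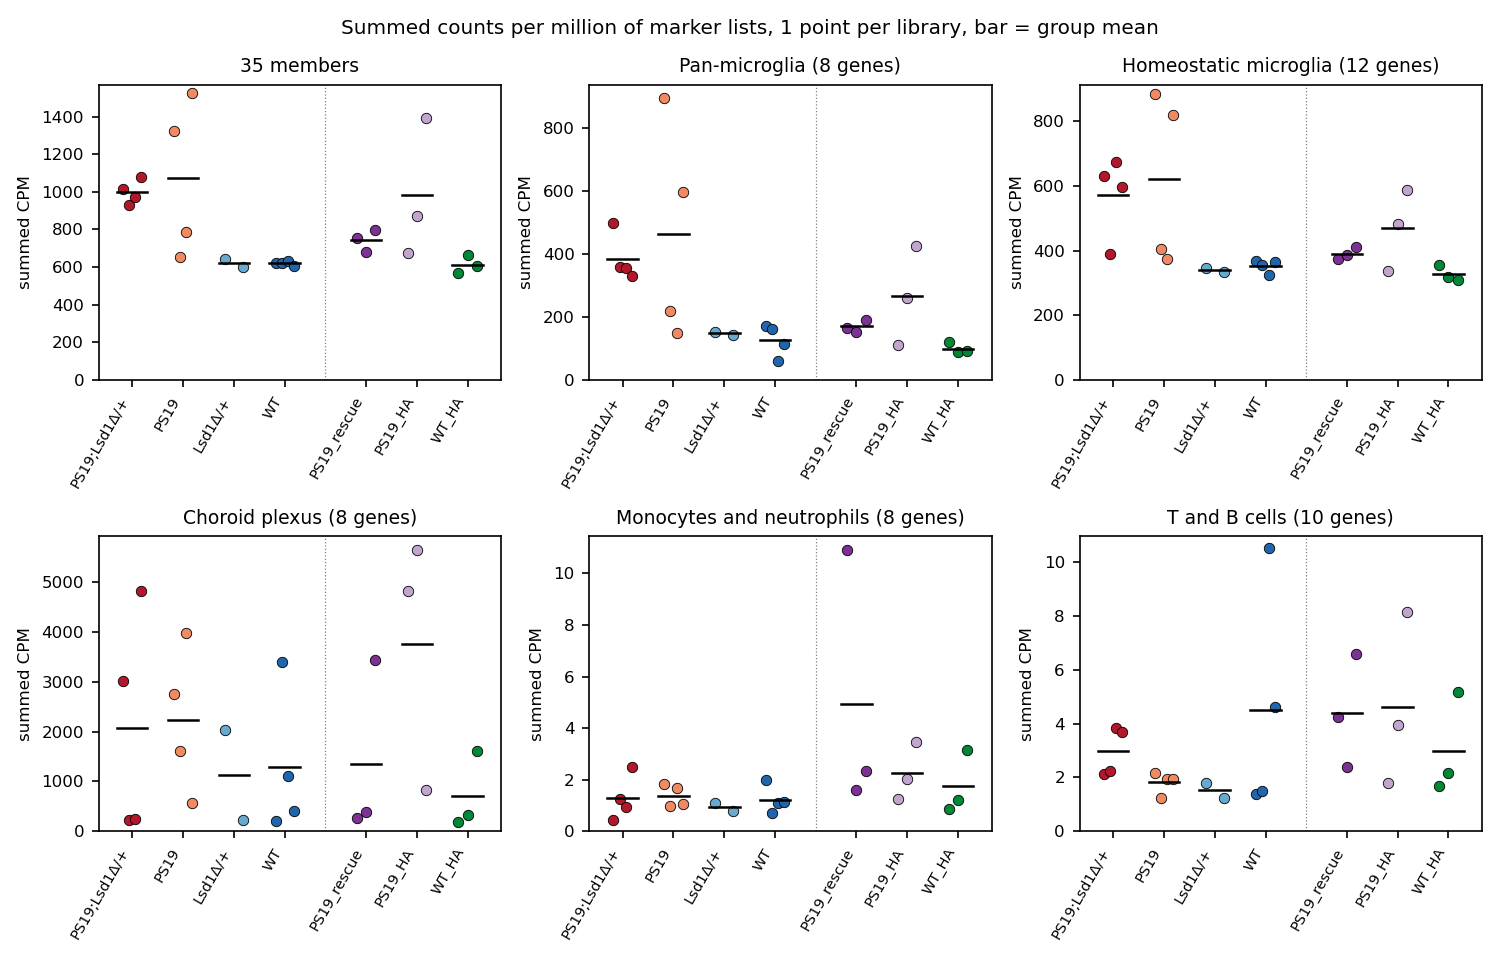
Summed CPM of the 35 members and of 5 marker lists, 1 point per library with a bar at the group mean, 9-month groups left of the dotted line and 11-month groups right of it. The members', pan-microglial and homeostatic sums are all high in PS19 replicates 1 and 4 and in PS19_HA replicate 3, while in PS19 Lsd1 heterozygotes replicate 4 is highest for the members and lowest for the pan-microglial list. Choroid plexus sums reach 5656 CPM in PS19_HA replicate 2.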

How the data were processed

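The authors deposited whole-number read counts per gene for 23 libraries. Per the submitters' processing notes, the tools named are FastQC 0.11.7, Trimmomatic 0.36.5, HISAT2 2.1.0, featureCounts 1.6.0.6 and DESeq2 2.11.40.2, with genome build GRCm38. The gene models used, the use of strand and the handling of multimapping reads, each not given in the sources used here, leave the counts of close relatives (such as Lilrb4a and its neighbours) and of overlapping genes uncertain. Of the deposited gene identifiers 54165 matched a GENCODE annotation of GRCm38, and the 67 others held 0.0184% of counts in the libraries. The promoter windows come from RefSeq (GRCm38.p6).

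The members were taken from a given list of 35 symbols, and members, roles and marker lists were chosen with earlier results of these data known. Genes were kept by filterByExpr (minimum count 10, minimum total 15), and levels (CPM) are counts scaled by TMM to a common library size. The main test was edgeR 4.0.16's quasi-likelihood test in R 4.3.3 (limma 3.58.1), fitted within each cohort with all its groups. The difference between the tau effects at 9 and 11 months was fitted over all 23 libraries. P-values were adjusted over all genes tested (Benjamini-Hochberg), with a threshold of 0.05, and DESeq2 1.42.0 was the alternative. The biological coefficient of variation was 0.423 at 9 months and 0.243 at 11 months. Values in every library are given for up to 2 members a role with the lowest p in each tau comparison and for the 3 with the lowest p between PS19_rescue and PS19_HA. No 2 libraries of a group agreed within sampling noise (smallest chi-square per gene 11.6). The scripts were tested on simulated data.

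Same-numbered libraries deviated together, at the correlation limit of 0.1 for every pair, between PS19 and WT (r 0.535 to 0.88), PS19 Lsd1 heterozygotes and WT (0.336 to 0.601), PS19 Lsd1 heterozygotes and PS19 (0.308 to 0.522), PS19_HA and WT_HA (0.151 to 0.347) and PS19_rescue and WT_HA (0.111 to 0.513), so the replicate block is given there. They did not between PS19_rescue and PS19_HA or between Lsd1 heterozygotes and WT. Between PS19 Lsd1 heterozygotes and PS19 every pair passed the limit, but 0 of 4 libraries correlated best with their own number. The numbers thus pair those 2 groups only weakly. The other alternatives were all 23 libraries in one fit, only the compared groups, RLE size factors, no filter, a prior count of 0.5 in place of 2, a sex covariate, subsets of replicates and leaving out single libraries.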

Additional observations from a re-analysis of the deposited data

Results flagged for a closer look

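Among the 63 sets of 4 libraries checked for a value far from the others, 2 were flagged. Chance alone flags about 1 set in 20, so 2 of 63 is no more than chance gives. The sets also share libraries and are not independent. Itgax was 31.7 CPM in PS19 Lsd1 heterozygote replicate 4, against 13.6 to 14.6 CPM in the other 3 libraries of that group. Cd9 was 48.0 CPM in PS19 Lsd1 heterozygote replicate 2, against 69.7 to 71.4 CPM in the others.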

How the results depend on the processing

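No called member reversed its direction under any alternative, but the count of called members depended on the test. The members' median changed sign under at least 1 alternative for the small differences between PS19 Lsd1 heterozygotes and PS19, between Lsd1 heterozygotes and WT, and between the allele effects with and without tau. For PS19 against WT edgeR called 0 members. It called 7 with all 23 libraries in one fit, where 91 of all genes were called higher and 1 lower. With no low-count filter it called 3 (9 of all genes higher), and DESeq2 called 16 (179 higher and 3 lower). Leaving out 1 library gave 0 to 15, with 15 without PS19 replicate 2. For PS19 Lsd1 heterozygotes against WT the count was 2 with all 23 libraries, where 11 of all genes were called higher and 1 lower. It was 6 with only the groups compared (22 of all genes higher) and 14 with DESeq2 (106 higher and 4 lower). DESeq2 called 12 for PS19_HA against WT_HA and 1 for PS19_rescue against WT_HA. Leaving out 1 library gave 0 calls in every comparison other than PS19 against WT.

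With the replicate block, edgeR called 1 member for PS19 against WT and 1 for PS19 Lsd1 heterozygotes against WT, and DESeq2 with the block called 21 and 24, as well as 15 for PS19_HA against WT_HA and 1 for PS19_rescue against WT_HA. The block changed no other count of called members. DESeq2's calls over all genes also rose with the block in these comparisons. For PS19_rescue against WT_HA they were 41 higher and 23 lower, against 16 and 2 without it. For the comparisons whose numbers did not pair the samples, the block gave 0 calls for PS19_rescue against PS19_HA (median -0.66) and 0 for Lsd1 heterozygotes against WT. In these, 1 of 3 and 1 of 2 libraries correlated best with their own number.

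Leaving out 1 library, the members' median ranged from 1.6 to 2.24 for PS19 against WT, 1.64 to 1.77 for PS19 Lsd1 heterozygotes against WT, 0.81 to 1.90 for PS19_HA against WT_HA, -1.10 to -0.07 for PS19_rescue against PS19_HA, 0.62 to 0.80 for PS19_rescue against WT_HA and 0.01 to 1.13 for the tau effect at 9 minus 11 months. With a prior count of 0.5 in place of 2 the share left in PS19_rescue was 27.3% in place of 14.1% for Atp6v0d2. The cause of these shifts was not tested. Depth limits the lowest genes, with 0 to 10 reads per WT library for Itgax, Cst7 and Clec7a. With 2 to 4 libraries a group and the spread among PS19 and PS19_HA libraries, adjusted p-values say little about single members.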
